A study of Mus musculus with 12 samples.

Results

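Gr1+ cells from the blood of mice bearing intracranial GL261 gliomas were set against Gr1- cells from the blood of such mice. GL261 is a glioma line from C57BL/6 mice that forms tumors when placed in their brains. Each population was measured on 1 Affymetrix Mouse Gene ST array, so 2 of the 12 arrays of the series were compared, over 19938 genes, and both were chosen by their sample labels alone. The other 10 arrays held microglia (MG, sorted by the study as CD11b+ CD45 low) and macrophages (MP, CD11b+ CD45 high) from tumor-bearing and normal brains, Gr1+ and Gr1- cells from tumors, and macrophages of the blood, labelled high or low, of mice with and without tumors. Both blood Gr1 populations carry the same descriptions apart from the sort: C57BL/6 mice, 7 weeks old at implantation, with no transgene or drug named, killed 2 weeks after the tumor cells were placed, with cells collected by FACS and total RNA extracted with TRIzol. The sources used here do not give the gates of the blood Gr1 sort, whether CD11b was required for the Gr1- cells, or how many mice were pooled for an array. With 1 array in each group there is no spread between replicates, no difference below was tested and no p-value is given.

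The Gr1 antibody binds Ly6G and Ly6C, surface proteins of neutrophils and of classical monocytes. Neutrophils fill their granules in a fixed order as they mature in the marrow, azurophil granules first, then specific and gelatinase granules, and mature cells leave the marrow bearing the chemokine receptor CXCR2. Microglia are the resident macrophages of the brain and are not cells of the circulation, whereas B cells, T cells and NK cells make up most nucleated blood cells that lack Gr1.

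Values are log2 signals as deposited, and a difference is blood Gr1+ minus blood Gr1-. Each array's background was the 95th percentile of its 1027 olfactory receptor (Olfr) genes, which blood cells are not known to use. It was 9.09 on the blood Gr1+ array and 9.03 on the blood Gr1- array, and 32.3% and 37.7% of genes lay above it. A gene below background on 1 array is given as an "at least" fold, with the background of that array in place of its value, and a gene below background on both arrays is given no fold. Counts of genes at least 2-fold apart include genes below background on both arrays, except where the text says otherwise. The olfactory receptor genes differed between both arrays with an SD of 0.38, and 2.14% of them reached a 2-fold difference, as did 7.51% of all genes. Among 60 ribosomal protein genes the SD was 0.28 and 0 were at least 2-fold apart. These spreads describe unrelated genes on the same pair of arrays and are not a replicate error. The number of arrays limits the precision of every value below.

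The blood Gr1- array went against its label. All but 2 of the 26 microglia markers lay above background on it, and their summed linear signal was 20702 on the blood Gr1+ array and 79324 on the blood Gr1- array. Sall1, a transcription factor that microglia use to hold their identity, read 8.01 on blood Gr1+ and 12.10 on blood Gr1-, beside 7.20 to 8.44 on the 4 blood macrophage arrays and 12.02 and 12.10 on tumor MG and tumor MP. P2ry12, the ADP receptor that guides microglial processes, read 8.52 on blood Gr1+ and 11.03 on blood Gr1-, beside 7.09 to 7.67 on the blood macrophage arrays and 11.17 and 11.35 on tumor MG and tumor MP. On both genes the blood Gr1- array sat with tumor MG and tumor MP and not with the blood macrophage arrays. Sall1 on tumor Gr1+, also a brain array, was 8.26, below background.

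The blood Gr1- array was most like tumor MP of all 11 other arrays. The correlation across 19938 genes was 0.962 with tumor MP, 0.949 with tumor Gr1-, 0.947 with tumor MG and 0.886 with blood Gr1+, while it was 0.521 to 0.823 with the 4 blood macrophage arrays. The blood Gr1+ array was also most like a brain array, with a correlation of 0.935 with tumor Gr1+. It correlated at 0.889 with tumor MP and at 0.50 to 0.89 with the 4 blood macrophage arrays. Genes are not replicates, so these coefficients are descriptions. The 4 blood macrophage arrays were not alike. The lowest value of both ranges is that of the high array of normal mice. Its background was 10.09, and 11.2% of genes exceeded it. Lymphocyte genes were also detected there, with 12 of 14 NK and 12 of 18 B cell markers over background. The low array of tumor-bearing mice had all 14 and all 18 over its own. The remaining blood macrophage arrays had 0 and 14 each. Only 0.386% of genes (77) were at least 2-fold higher in blood Gr1- than in tumor MP and 0.431% (86) at least 2-fold lower. Of the 26 microglia markers, 0 were at least 2-fold apart between them. The tumor MP array itself held 23 of these markers above background, with a list median of 11.47, beside 21 and 11.29 on tumor MG. Among B cell markers, 12 of 18 were at least 2-fold higher in blood Gr1- than in tumor MP. Cd79a, the signalling chain of the B cell receptor, read 10.60 on blood Gr1- and 6.80 on tumor MP, and Pax5, the factor that commits cells to the B lineage, read 10.68 and 8.49. The genes at least 2-fold lower in blood Gr1- than in tumor MP held 3 of 12 specific granule genes, 2 of 13 neutrophil receptor genes and 2 of 22 chemokine genes. Ngp, the neutrophilic granule protein, read 7.22 on blood Gr1- and 10.27 on tumor MP, F10, coagulation factor X, read 9.03 and 10.23, and Vegfa, the endothelial growth factor, read 8.33 and 9.38. These 3 genes are among those higher in blood Gr1+ below, and their blood Gr1- values were below background. How microglial transcripts came to be on this array was not tested. Below, blood Gr1- stands for the array labelled so, and every gene called higher or lower in Gr1+ cells is so against that array.

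The blood Gr1+ array also carried some brain transcripts. Microglial genes were at a lower level there than on blood Gr1-, whereas Mbp and Slc1a2 were less than 2-fold apart. Mbp, a myelin protein of oligodendrocytes, read 11.16 on blood Gr1+ and 11.49 on blood Gr1-, against 6.86 to 8.96 on the 4 blood macrophage arrays. Slc1a2, the glutamate transporter of astrocytes, read 11.35 on blood Gr1+ and 11.90 on blood Gr1-, against 7.16 to 7.43 on those arrays. Over whole lists, most members lay below background. Above it on blood Gr1+ and blood Gr1- were 3 and 3 of 13 oligodendrocyte and 3 and 4 of 9 astrocyte markers. Neuron markers had 2 and 3 of 12 above it, and all genes 32.3% and 37.7%. The summed linear signals of these 3 lists were, in that order, 7487 and 8728, 10692 and 15011, and 4888 and 5379. All 9 astrocyte markers read lower on blood Gr1+, by differences of -0.19 to -1.40 with a median of -0.50, and 1 was at least 2-fold lower. In the oligodendrocyte and neuron lists 0 were at least 2-fold apart. Mog and Gfap, defining markers of oligodendrocytes and astrocytes, were below background on both. Of the microglia markers 11 of 26 lay above background on the blood Gr1+ array, beside 32.3% of all genes. C1qa, a complement gene outside that list, read 10.70 there and 7.42 to 8.31 on the blood macrophage arrays. The part of these transcripts in the differences below was not tested.

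**Figure D1:**
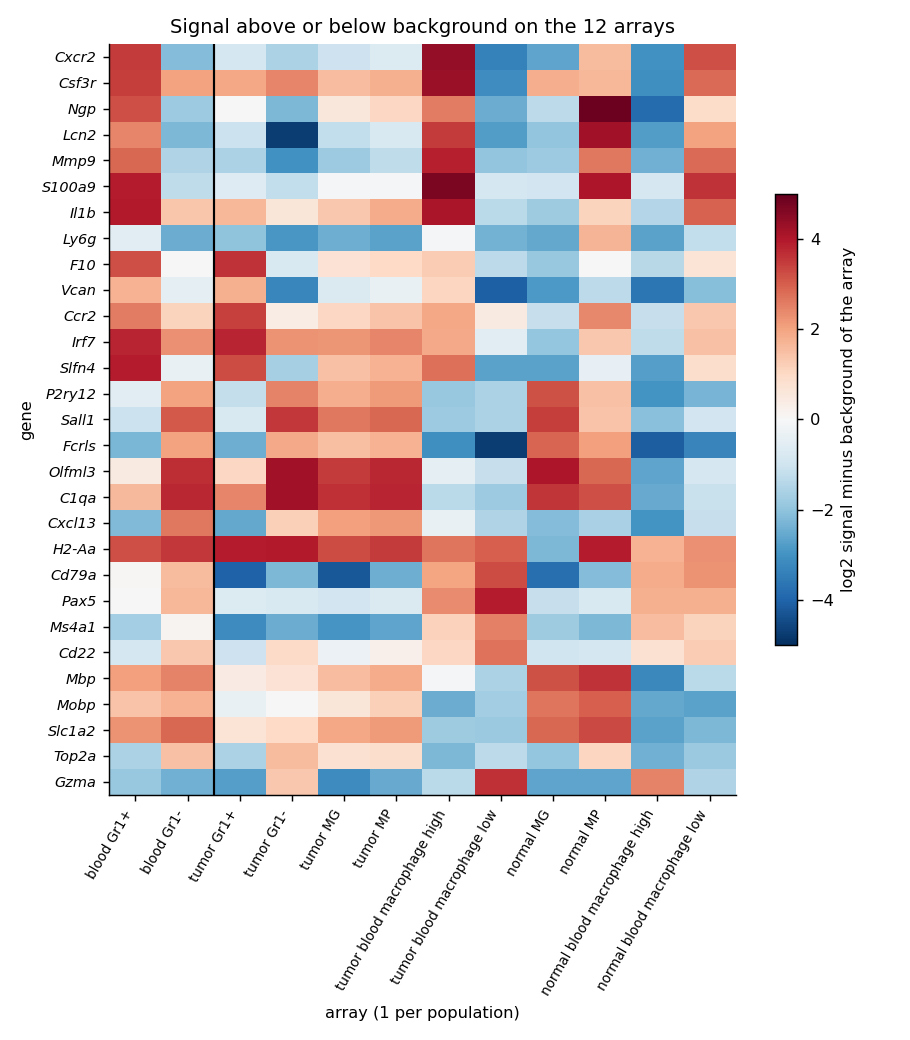
Log2 signal minus the background of the array for 29 genes (rows) on the 12 arrays (columns, 1 array per population). Red is above background and blue below it. The blood Gr1- column follows the tumor MG and tumor MP columns for Sall1, P2ry12 and C1qa and differs from them for Cd79a, Pax5 and Ms4a1, and both blood Gr1 columns are above background for Mbp, Mobp and Slc1a2.

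Of all genes, 638 (3.20%) had at least 2-fold more signal in Gr1+ cells of the blood and 859 (4.31%) at least 2-fold less. Of the 8208 genes that either array held above background, 491 (5.98%) were higher by this measure and 481 (5.86%) lower. The median over all genes was -0.07. The genes furthest apart named cell types: neutrophil genes led one end and microglial genes the other. In a bulk sample, fewer cells of a type and less RNA per cell cannot be told apart.

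**Figure D2:**
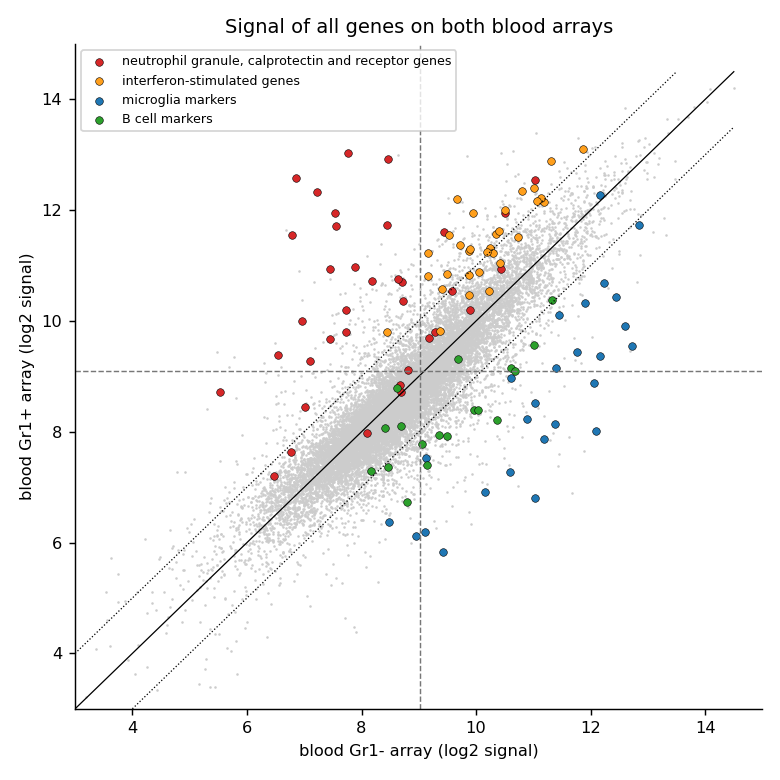
Log2 signal of 19938 genes on the blood Gr1- array (horizontal) and on the blood Gr1+ array (vertical). Dashed lines are the background of each array, the solid line is equality and the dotted lines 2-fold. Most neutrophil genes lie above the upper dotted line, mostly at Gr1- signals below background. Interferon-stimulated genes lie along it at signals mostly above background on both arrays. Most microglia and B cell markers lie below the lower dotted line.

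Cxcr2, the receptor through which neutrophils answer CXC chemokines, read 12.58 on blood Gr1+ and 6.85, below background, on blood Gr1-. The measured difference of 5.72 was the largest among genes above background, but with the background in place of the Gr1- value it was at least 11.7-fold higher, and S100a9, Slfn4 and S100a8 had larger bounds. All 13 genes of the neutrophil receptor list lay above background on blood Gr1+ and 5 on blood Gr1-. Of these, 9 were at least 2-fold higher in Gr1+ cells and 0 lower, with a median of 2.07 beside -0.07 over all genes.

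Clec4d and Clec4e are neighbouring C-type lectins that sense mycobacterial glycolipid. Clec4d read 11.73 on blood Gr1+ and 8.44 on blood Gr1-, at least 6.51-fold higher, and Clec4e 10.94 and 7.45, at least 3.78-fold higher. Trem1, an amplifier of inflammatory signals, read 10.76 on blood Gr1+ and 8.63 on blood Gr1-. Il1r2, the decoy receptor for interleukin-1, read 10.19 and 7.74. Csf3r, the receptor for the granulocyte growth factor G-CSF, was above background on both arrays, at 12.54 on blood Gr1+ and 11.03 on blood Gr1-, which is 2.84-fold higher. Unlike Cxcr2, it was not a gene of the Gr1+ array alone. A further list of 17 neutrophil genes had 11 at least 2-fold higher in Gr1+ cells and 0 lower, with a median of 1.98. Slfn4, a schlafen gene of myeloid cells, differed by 4.36, with its blood Gr1- value of 8.64 below background, and was at least 15.7-fold higher. Mxd1, a partner of MAX that opposes MYC, was above background on both arrays, at 12.22 on blood Gr1+ and 9.51 on blood Gr1-, 6.51-fold higher.

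The granule genes split by granule type. Of 12 specific granule genes, 10 were at least 2-fold higher in Gr1+ cells and 0 lower, with a median of 2.36. Those 10 include the 8 that were above background on blood Gr1+, and 0 were above it on blood Gr1-. Ngp read 12.32 on blood Gr1+ and 7.22 on blood Gr1-, at least 9.81-fold higher. Lcn2, which binds bacterial siderophores, read 11.55 and 6.79, at least 5.76-fold higher. Mmp8, the neutrophil collagenase, read 11.71 and 7.56, at least 6.43-fold higher. Hp (haptoglobin, 10.98 and 7.88) and Pglyrp1 (a peptidoglycan binding protein, 10.73 and 8.18) were at least 3.88-fold and 3.24-fold higher.

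Of 6 gelatinase granule genes, 3 were at least 2-fold higher in Gr1+ cells, with a median of 1.34. Mmp9, the gelatinase itself, read 11.96 on blood Gr1+ and 7.54 on blood Gr1-, at least 7.62-fold higher. Padi4, which citrullinates histones when neutrophils release chromatin, read 10.00 and 6.97. Adam8, a membrane protease, read 11.60 and 9.43, 4.50-fold higher with both values above background.

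The azurophil granule genes, which neutrophils transcribe as promyelocytes, did not follow. Of 7 such genes 0 were at least 2-fold apart, the median was -0.17 and 6 were below background on both arrays. Mpo, myeloperoxidase, read 8.53 on blood Gr1+ and 8.20 on blood Gr1-, and Elane, neutrophil elastase, read 7.86 and 7.70. Only Ctsc, the protease that activates the azurophil proteases and is also made by macrophages, was above background, at 12.37 and 12.54. Among the specific granule genes the late-myelocyte products Ltf (lactoferrin, 8.72 and 5.53) and Camp (cathelicidin, 8.45 and 7.01) were likewise below background on both arrays, and no fold is given for them.

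S100a8 and S100a9, the subunits of calprotectin, were among the brightest genes of the Gr1+ array. S100a9 read 13.03 on blood Gr1+ and 7.76 on blood Gr1-, at least 16.1-fold higher. S100a8 read 12.92 and 8.46, a difference of 4.46. Both were below background on the array labelled blood Gr1-. With Stfa2, a stefin that inhibits cysteine proteases, 3 of 5 genes of this list were at least 2-fold higher, and the other members written for it were not analysed here. The median of the list, 2.84, is the value of Stfa2 (9.39 on blood Gr1+ and 6.54, below background, on blood Gr1-), and it was 0.36 with values below background raised to it.

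**Figure D3:**
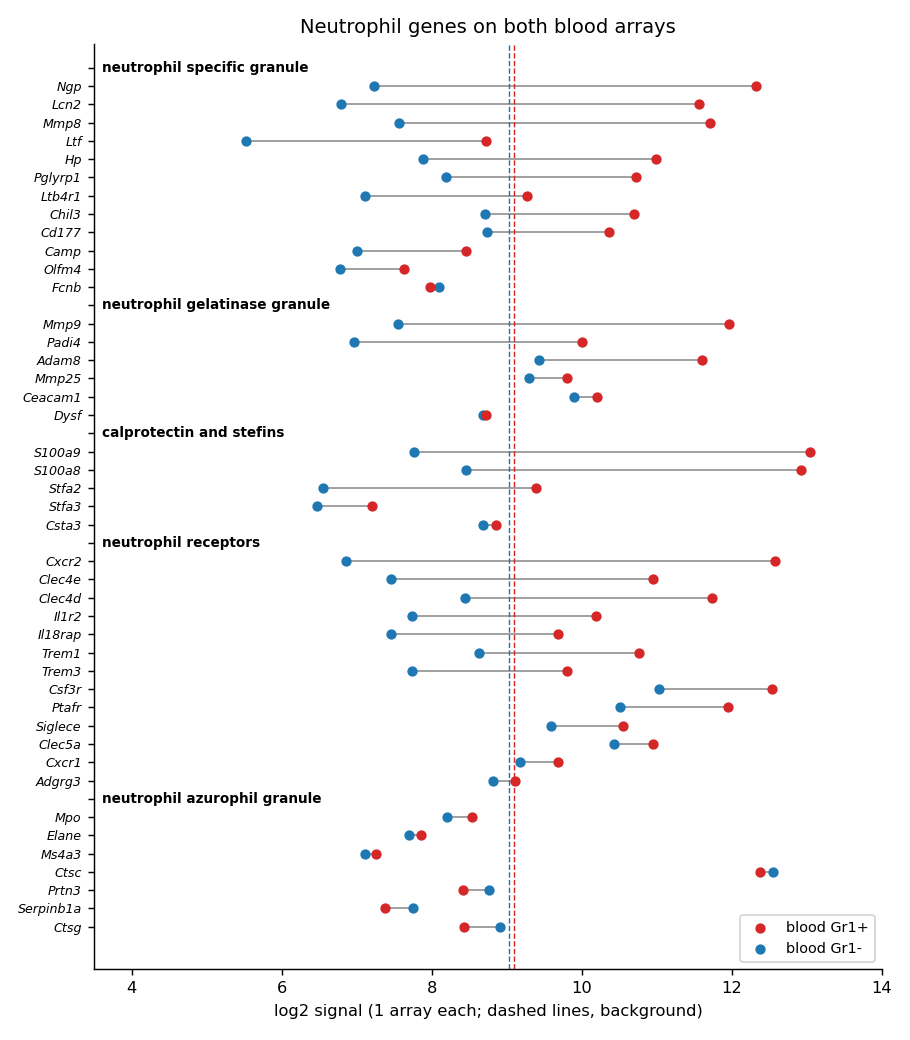
Log2 signal of neutrophil genes on the blood Gr1+ (red) and blood Gr1- (blue) arrays, 1 array each, grouped by granule type or role and sorted by difference within a group. Dashed lines are the background of each array. Right of it on Gr1+ lie 8 of 12 specific granule and 3 of 5 calprotectin and stefin genes, and 0 of either on Gr1-. All 13 receptor genes lie right of it on Gr1+ and 5 on Gr1-. Azurophil granule genes other than Ctsc sit below background on both.

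Genes of classical monocytes, the other Gr1+ cell of the blood, were also higher in Gr1+ cells. As deposited, 15 of 18 passed 2-fold upward and 0 downward, with a median of 1.59, and this count was 13 to 16 under other scalings of the arrays. All 18 lay above background on blood Gr1+ and 14 on blood Gr1-. F10 read 12.32 on blood Gr1+ and 9.03, just below background, on blood Gr1-, at least 9.81-fold higher. Vcan, the proteoglycan versican, read 10.83 and 8.59, at least 3.49-fold higher. Plac8 (12.15 and 9.75) and Gda, guanine deaminase (12.15 and 9.70), were 5.27-fold and 5.47-fold higher. Ccr2, the receptor that draws monocytes to CCL2, read 11.66 on blood Gr1+ and 10.12 on blood Gr1-, 2.91-fold higher. The 12 genes of nonclassical monocytes, which carry little Ly6C, showed 1 higher and 2 lower as deposited, 3 higher and 0 lower after loess normalization, and a median of -0.04 as deposited that was above 0 under the other 3 scalings.

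Of the 6 measured genes of the Ly6 list, 2 were above background on at least 1 array. Ly6i, a close relative of Ly6C, read 11.39 on blood Gr1+ and 9.01 on blood Gr1-, at least 5.16-fold higher. Ly6e, which many cell types express and interferon induces, read 13.19 on blood Gr1+ and 13.02 on blood Gr1-. Ly6a2, outside the Ly6 list and named after its value was seen, read 9.95 on blood Gr1+ and 8.60 on blood Gr1-, at least 1.89-fold higher. Ly6g, the gene of the neutrophil antigen that the Gr1 antibody binds, read 8.52 on blood Gr1+ and 6.54 on blood Gr1-, below background on both. It was above background on 1 of the 12 arrays, normal MP, at 10.76. The probe sets of the Ly6C genes carry several gene symbols and were not used here. Itgam, the gene of CD11b, was named after its value was seen, and read 12.68 on blood Gr1+ and 12.65 on blood Gr1-. Cd44, a receptor for hyaluronan, was 3.75-fold higher in Gr1+ cells (12.65 and 10.74) and Cx3cr1, the fractalkine receptor of microglia and nonclassical monocytes, was lower by 2.00 (10.44 and 12.44).

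Interleukin-1 genes stood out among the cytokines. Of 16 genes of interleukin-1 and the inflammasome, 10 were at least 2-fold higher in Gr1+ cells and 1 lower, with a median of 1.19. Of those 10, 9 were above background on at least 1 array. Il1b read 13.04 on blood Gr1+ and 10.43 on blood Gr1-, 6.11-fold higher, and its natural antagonist Il1rn read 11.99 and 9.77, 4.65-fold higher. Il1f9, the interleukin-36 gamma gene, read 11.65 on blood Gr1+ and 6.69 on blood Gr1-, at least 6.15-fold higher. Mefv, the gene of the inflammasome sensor pyrin, read 11.38 and 8.34, at least 5.12-fold higher. Il1a went the other way, at 8.82 on blood Gr1+ and 10.28 on blood Gr1-.

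Chemokine genes went both ways, 4 of 22 higher and 4 lower as deposited and 2 lower under each of 3 other scalings. Cxcl2, a ligand of CXCR2, read 10.91 on blood Gr1+ and 6.90 on blood Gr1-, at least 3.68-fold higher. Cxcl10, induced by interferon, read 12.52 and 11.05, 2.76-fold higher. Cxcl13, which draws B cells into follicles, read 6.90, below background, on blood Gr1+ and 11.67 on blood Gr1-. It was the lowest measured difference among genes above background, but the bound was at least 5.96-fold lower, and Cd81, Olfml3 and Sall1 had larger ones. Cxcl13 was not a gene of the other blood arrays, where it read 7.11 to 8.64, but read 11.41 on tumor MG and 11.40 on tumor MP.

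Genes that type I interferon induces were higher in Gr1+ cells almost as a block, and unlike the neutrophil genes they were measured on both sides. Of 31 genes, 31 were above background on blood Gr1+ and 30 on blood Gr1-. In all, 22 passed 2-fold upward and 0 downward, with a median of 1.23 beside -0.07 over all genes, and the count was 18 to 25 under other scalings. The lowest difference of the list was 0.32. Slfn1, a schlafen gene, read 12.20 on blood Gr1+ and 9.67 on blood Gr1-, 5.77-fold higher. Oas3, a sensor of double-stranded RNA, read 11.23 and 9.15, 4.23-fold higher. Rsad2, the antiviral enzyme viperin, read 11.38 and 9.73, 3.14-fold higher. Irf7, the transcription factor that amplifies the response, read 12.88 on blood Gr1+ and 11.32 on blood Gr1-, 2.96-fold higher.

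Promoter sequences are shown for both groups because their members were higher together. RefSeq gave 300-base promoters (250 bases before to 50 after the start, build GRCm38.p6) for 22 of the 31 interferon-stimulated genes, 26 promoters in all. The letters GAAANNGAAA, the core of the element that interferon-activated complexes bind, were searched on both strands, where the reverse reads TTTCNNTTTC. They stood in 15 of the 26 promoters (57.7%), against 1131 of all 32851 promoters (3.44%). Genes with a match include Bst2 and Oas1a, named after their values were seen, which differed by only 0.32 and 0.44. A match therefore did not mark the genes past 2-fold. Matches can overlap one another within a promoter. Stretches of 4 promoters are printed 5′ to 3′ along the gene, with each whole match in capitals. Ifit1 and Ifit3, antiviral RNA-binding proteins, were named after their values were seen. Oas3 lies at chr5:120777700-120777759 on the minus strand, Rsad2 at chr12:26456538-26456597 on the minus strand, Ifit3 at chr19:34583348-34583407 on the plus strand and Ifit1 at chr19:34640760-34640819 on the plus strand.
Oas3: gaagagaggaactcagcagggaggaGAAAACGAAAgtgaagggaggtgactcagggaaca
Rsad2: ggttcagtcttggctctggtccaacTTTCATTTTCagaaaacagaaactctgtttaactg
Ifit3: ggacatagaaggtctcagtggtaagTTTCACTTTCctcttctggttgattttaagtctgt
Ifit1: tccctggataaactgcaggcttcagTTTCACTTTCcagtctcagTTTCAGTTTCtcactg
The first matches begin 75, 120, 156 and 104 bases before the start of Oas3, Rsad2, Ifit3 and Ifit1. Ifit1 has another at 85 bases, also printed, and Ifit3 another at 122 bases, outside the stretch. Ifit3 read 11.29 on blood Gr1+ and 9.89 on blood Gr1-, and Ifit1 10.85 and 9.49.

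For the specific granule genes the letters TTGCNNAA were searched on both strands (reverse TTNNGCAA), part of the sites that C/EBP factors bind. They stood in 5 of 11 promoters (45.5%) of specific granule genes and in 2 of 5 promoters of the calprotectin and stefin genes, against 3547 of all 32851 promoters (10.8%). The GAAANNGAAA letters stood in 0 of these 11 promoters. No match of 1 motif overlapped a match of the other. Fcnb, a ficolin gene below background on both arrays (7.97 and 8.10), is among the 5. Csta3, a stefin gene also below background on both arrays, with a difference of 0.18, is among the 2. So a match did not mark the genes that differed. Ngp lies at chr9:110419645-110419702 on the plus strand, Lcn2 at chr2:32387923-32387980 on the minus strand, Mmp8 at chr9:7558385-7558442 on the plus strand and S100a9 at chr3:90695925-90695971 on the minus strand.
Ngp: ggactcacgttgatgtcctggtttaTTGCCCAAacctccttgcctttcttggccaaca
Lcn2: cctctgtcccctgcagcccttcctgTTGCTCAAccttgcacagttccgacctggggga
Mmp8: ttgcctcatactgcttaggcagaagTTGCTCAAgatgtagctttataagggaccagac
S100a9: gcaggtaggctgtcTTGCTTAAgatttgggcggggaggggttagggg
These matches begin 138, 216, 19 and 236 bases before the start of Ngp, Lcn2, Mmp8 and S100a9, and Ngp has another at 11 bases, outside the stretch. A match of letters is a description and does not show that a factor was bound in these cells.

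Genes of glucose use and the hypoxia response were higher or level, 6 of 16 at least 2-fold higher in Gr1+ cells and 0 lower, with a median of 0.71. Vegfa read 11.04 on blood Gr1+ and 8.33 on blood Gr1-, at least 4.02-fold higher. Slc2a3 and Slc2a1, glucose transporters, read 10.28 and 8.01, and 11.85 and 10.54. Of 13 immediate early genes, which answer stress within minutes, 6 were past 2-fold upward and 1 downward as deposited, and 0 downward after median centring or loess normalization. Dusp1, a phosphatase of MAP kinases, read 12.53 on blood Gr1+ and 10.52 on blood Gr1-, 4.04-fold higher, whereas the transcription factor gene Egr1 read 10.16 and 11.26.

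The genes of arginine metabolism, the subject of the study, did not move as a block. Of 14 measured genes, 3 were at least 2-fold higher in Gr1+ cells and 1 lower as deposited, 0 lower under each of 3 other scalings, and the median was 0.03 as deposited and -0.02 after quantile normalization. Above background on at least 1 array were 2 of the 3 higher genes and the 1 lower gene. Arg2, the mitochondrial arginase, read 9.76 on blood Gr1+ and 7.56 on blood Gr1-, at least 1.66-fold higher. Nos2, the inducible nitric oxide synthase, read 9.54 and 7.66, at least 1.43-fold higher. Gch1, which starts synthesis of the nitric oxide synthase cofactor, was below background on both arrays (8.67 and 7.64). Srm, spermidine synthase, read 8.79 on blood Gr1+ and 9.83 on blood Gr1-, at least 1.67-fold lower.

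**Figure D4:**
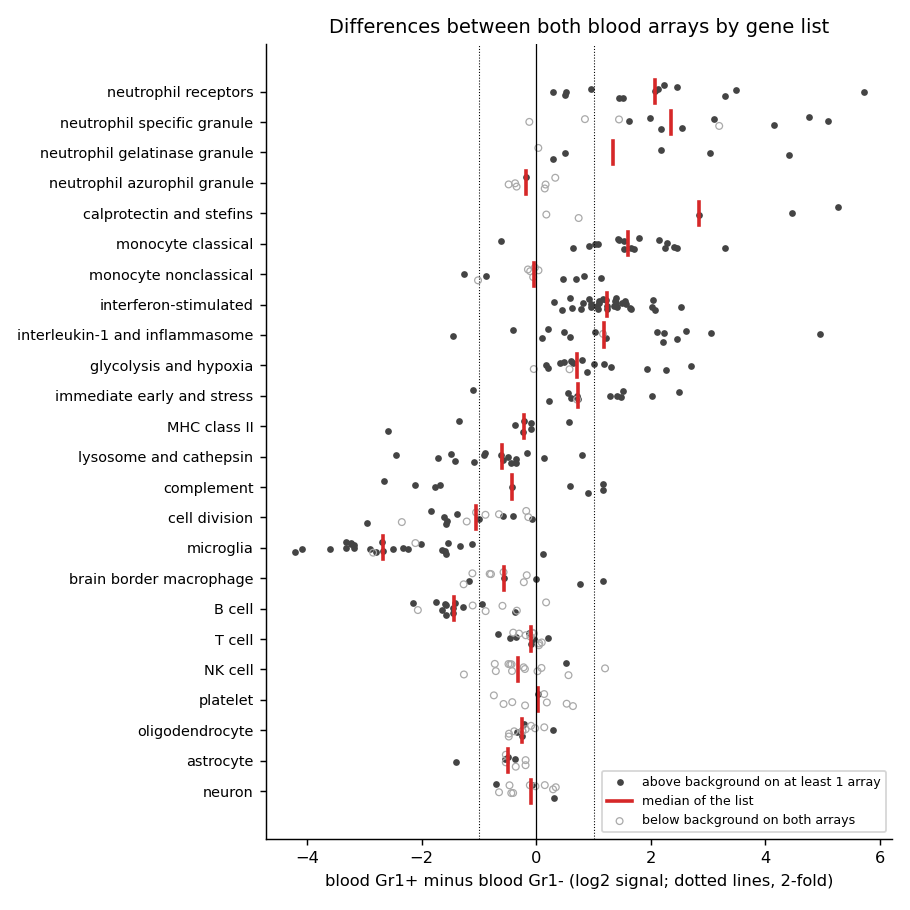
Difference between both blood arrays (blood Gr1+ minus blood Gr1-, log2) for each member of 24 gene lists. Filled points are genes that either array held above background, open points the rest, and red bars list medians, which run from 2.84 for calprotectin and stefins (0.36 with values below background raised to it) to -2.68 for microglia (-1.69).

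At the other end stood the microglia list, with 25 of 26 members at least 2-fold lower in Gr1+ cells and 0 higher, and a median of -2.68. Of those 25, 23 were above background on at least 1 array. Fcrls, an Fc receptor-like gene of mouse microglia, read 6.81 on blood Gr1+ and 11.03 on blood Gr1-, at least 3.82-fold lower. Sall1 was at least 8.05-fold lower by the values above. Olfml3, a secreted matrix protein, was above background on both arrays, at 9.54 on blood Gr1+ and 12.73 on blood Gr1-, 9.09-fold lower. Gpr34, a lysophosphatidylserine receptor, read 5.82 and 9.43, at least 1.26-fold lower. Bhlhe41, a transcriptional repressor outside the microglia list, read 7.59 and 11.44, at least 5.09-fold lower. The 1 marker that was not lower was Cd33, named after its value was seen, at 12.28 on blood Gr1+ and 12.16 on blood Gr1-.

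Several other lists that hold genes microglia also express were lower in part. All 3 chains of C1q, the starter of the classical complement pathway, were lower in Gr1+ cells: C1qa read 10.70 on blood Gr1+ and 12.82 on blood Gr1-, C1qb 11.19 and 12.87, and C1qc 11.55 and 13.31. C4b, the next component of that pathway, read 8.42 and 11.09, at least 3.98-fold lower. Cfb and Cfp, factors of the alternative pathway, were higher instead, at 12.48 and 11.30 for Cfb and 11.43 and 10.27 for Cfp. In all, 2 of 9 complement genes were higher and 4 lower.

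Of 16 lysosome and cathepsin genes, 5 were at least 2-fold lower and 0 higher as deposited, and 4 to 7 lower under other scalings. Ctsd, cathepsin D, read 11.86 on blood Gr1+ and 13.28 on blood Gr1-, 2.67-fold lower, and Ctsl, cathepsin L, read 10.59 and 12.31, 3.31-fold lower. Cst3, the cathepsin inhibitor cystatin C, read 11.60 and 13.08, 2.80-fold lower. These values moved with the microglia markers, whose part in them was not tested. Genes of lipid-handling macrophages showed 6 of 17 lower and 2 higher as deposited, and 4 lower and 3 higher after median centring or loess normalization, with Cst7, cystatin F, at 8.29 on blood Gr1+ and 11.19 on blood Gr1-. Apoe, named after its value was seen, read 13.39 and 13.35.

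The B cell markers were lower in Gr1+ cells too, 12 of 18 at least 2-fold lower and 0 higher, with a median of -1.43. Of those 12, 10 were above background on at least 1 array. Above background were 4 of 18 on blood Gr1+ and 12 on blood Gr1-, and the summed linear signals were 7095 and 16715. Cd79a read 9.16 on blood Gr1+ and 10.60 on blood Gr1-, 2.72-fold lower. Cd22, an inhibitory receptor of B cells that microglia can also express, read 8.21 and 10.36, at least 2.41-fold lower. Pax5 read 9.09, on the edge of background, and 10.68, a difference of -1.59. These levels were below those of the 4 blood macrophage arrays, where Cd79a read 10.99 to 12.51 and Pax5 11.21 to 13.17. H2-Oa and H2-Ob, which B cells use to restrain antigen loading, were the 2 of 8 MHC class II genes at least 2-fold lower (7.01 and 9.60 for H2-Oa, 8.50 and 9.85 for H2-Ob). The antigen-presenting molecule itself was level, with H2-Aa at 12.33 on blood Gr1+ and 12.55 on blood Gr1-.

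Of 16 T cell markers 0 were at least 2-fold apart, and 4 lay above background on blood Gr1+ and 7 on blood Gr1-, beside 32.3% and 37.7% of all genes. Each array held 1 of 14 NK cell markers above background, and that was Ccl5, a chemokine gene that other cells also express. Gzma, granzyme A, read 7.19 on blood Gr1+ and 6.63 on blood Gr1-, against 12.91 and 12.58 on the blood macrophage low array of tumor-bearing mice and the blood macrophage high array of normal mice. Platelet and erythroid markers had 1 of 9 and 1 of 5 above background on each array. Of 12 eosinophil, basophil and mast cell markers, 1 was above background on blood Gr1+ and 3 on blood Gr1-.

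Cell division genes were lower in Gr1+ cells. Of 17 such genes, 10 were at least 2-fold lower and 0 higher as deposited, 7 of them above background on at least 1 array, and 8 were lower under each of 3 other scalings, with 2 above background on blood Gr1+ and 10 on blood Gr1-. Top2a, the topoisomerase of dividing cells, read 7.53 on blood Gr1+ and 10.49 on blood Gr1-, at least 2.63-fold lower. Mki67, the proliferation marker, read 8.66 and 10.05, at least 1.94-fold lower.

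Transcription factors of myeloid lineages went both ways. Of 20, 6 were at least 2-fold higher in Gr1+ cells, 2 lower and 12 between, as deposited. Cebpb, which drives emergency granulopoiesis and monocyte genes, read 12.22 on blood Gr1+ and 10.77 on blood Gr1-, 2.73-fold higher. Spi1, the gene of PU.1, read 12.31 and 11.25, 2.08-fold higher. Mef2c, active in microglia and B cells, read 10.09 and 11.78, 3.23-fold lower.

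Some of the 20 genes furthest apart each way belong to none of the lists above. Thbs1, thrombospondin 1, was above background on both arrays at 12.98 on blood Gr1+ and 9.85 on blood Gr1-, 8.78-fold higher. Dhrs9, a retinol dehydrogenase, read 10.70 and 7.18, and the noncoding RNA gene Mirt2 read 10.38 and 6.96. Defb37 and Defb40, defensin genes of the epididymis in mice, read 9.44 and 5.48, and 9.35 and 5.78, so their Gr1+ values were only just above background. At the lower end, Slco2b1, an organic anion transporter, read 7.65 on blood Gr1+ and 11.89 on blood Gr1-, at least 6.94-fold lower. Hpgds, a prostaglandin D synthase, read 7.86 and 11.29, at least 4.60-fold lower. Cd81, a tetraspanin, read 9.45 and 12.68, 9.36-fold lower.

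The same sort was made from tumors, and that pair of arrays shares no array with the blood pair. In the tumor 574 genes (2.88%) were at least 2-fold higher in Gr1+ than in Gr1- cells and 1020 (5.12%) at least 2-fold lower. Of 7529 genes above background on at least 1 array of each pair, 256 were higher in Gr1+ cells in both blood and tumor and 309 lower in both. These were 66.5% of the blood genes that were higher and 64.8% of the tumor genes that were higher, and 70.7% and 61.6% of the genes that were lower in blood and in tumor. Among the 7529 genes, those less than 2-fold apart in blood held 138 higher in tumor Gr1+ cells, 189 lower and 6380 neither. The differences of both pairs correlated with r = 0.81 across the 7529 genes, which are not replicates. Across all 19938 genes blood Gr1- correlated at 0.949 with tumor Gr1-, and blood Gr1+ at 0.935 with tumor Gr1+. How far this likeness of the arrays underlies the overlap was not tested. The difference between blood and tumor was not tested for any gene or list.

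Several lists had unlike values in blood and tumor. All 13 neutrophil receptor genes lay above background on blood Gr1+ and 7 on tumor Gr1+, with medians of 2.07 in blood and 0.28 in tumor. Of 5 calprotectin and stefin genes, 3 lay above background on blood Gr1+ and 0 on tumor Gr1+. Cxcr2 read 8.12 on tumor Gr1+ and 7.35 on tumor Gr1-, below background on both. S100a9 read 8.38 and 7.72 there, also below background. Csf3r read 10.97 on tumor Gr1+ and 11.39 on tumor Gr1-, so it lay on the other side of 0 from the blood difference of 1.51. Of 12 specific granule genes, 8 lay above background on blood Gr1+ and 5 on tumor Gr1+, so their medians of 2.36 in blood and 2.42 in tumor rest in part on values below background. Ngp (9.01 on tumor Gr1+ and 6.69 on tumor Gr1-) and Pglyrp1 (8.26 and 8.58) were below background on both tumor arrays.

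The classical monocyte list had a median of 1.59 in blood and 3.14 in tumor, or 1.59 and 2.24 with values below background raised to it. Vcan read 10.80 on tumor Gr1+ and 5.67, below background, on tumor Gr1-, at least 3.64-fold higher beside at least 3.49-fold in blood. F13a1 and Fn1, coagulation factor XIII A and fibronectin, were named after their values were seen. F13a1 was 2.03-fold higher in blood and at least 5.68-fold in tumor, and Fn1, above background on all 4 arrays, 2.11-fold and 10.4-fold. Fn1 read 13.15 on blood Gr1+ and 12.07 on blood Gr1-, and 13.55 on tumor Gr1+ and 10.17 on tumor Gr1-, so the Gr1- values lay further apart than the Gr1+ values.

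Interferon-stimulated genes were higher and microglia markers lower in Gr1+ cells in both places. The interferon list had a median of 1.23 in blood and 1.21 in tumor, with 22 and 17 of 31 genes past 2-fold in the same direction. The microglia list had medians of -2.68 and -3.12, with 25 of 26 markers at least 2-fold lower in each. NK cell markers were level in blood (median -0.32, 13 of 14 below background on both arrays) and lower in Gr1+ cells in tumor (12 of 14 at least 2-fold lower, with 1 above background on tumor Gr1+ and 8 on tumor Gr1-). B cell markers had medians of -1.43 in blood and -0.32 in tumor, where 2 of 18 lay above background on tumor Gr1+ and 4 on tumor Gr1-.

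**Figure D5:**
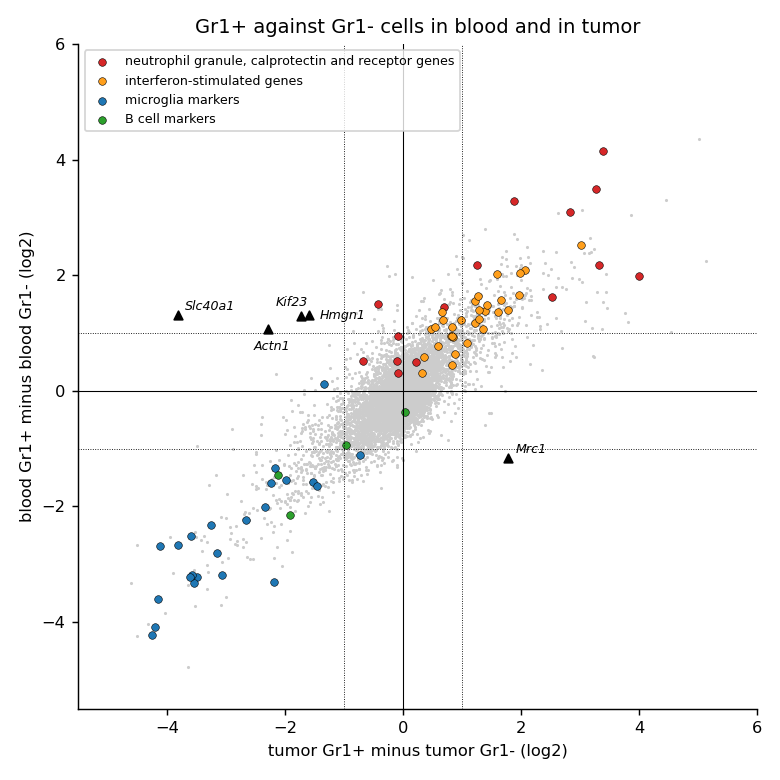
Difference between Gr1+ and Gr1- cells (log2) in tumor (horizontal) and in blood (vertical) for 7529 genes above background on at least 1 array of each pair. Dotted lines are 2-fold; microglia markers lie at the lower left and interferon-stimulated genes at the upper right near the diagonal, and triangles are the 5 genes at least 2-fold apart in opposite directions, of which 1 remains with values below background raised to it.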

How the data were processed

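Total RNA of sorted cells was amplified in 2 cycles and hybridized by the authors to Affymetrix Mouse Gene ST arrays. The deposited values are log2 signals per probe set, which the authors made in Affymetrix's Expression Console. RMA is named in the submitters' processing notes without its settings, and the genome build and annotation release are not given in the sources used here. The values were not rescaled.

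The platform annotation pairs 21789 of 28944 probe sets with 1 gene symbol, 1621 with several and 5534 with none, and only the first kind was used. For 999 genes with several probe sets, the brightest over all arrays was taken, which left 19938 genes. In 452 such genes with more than 1 probe set above background, the differences of a gene's probe sets spanned a median of 0.13, and over 1 for 19 genes. Differences of both arrays were counted at 2-fold. The study's methods used p-values adjusted for multiple tests, which could not be had from 1 array per group.

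Of 608 members written for 42 gene lists, 548 were measured. Members and lists were chosen with earlier results of these data known. The text names the 20 largest differences each way among genes whose brighter array is above background. It also names the markers Cxcr2, Ngp, P2ry12 and Cd79a and the genes of the Ly6 list. Up to 8 members of each list with the largest differences are named, and members below background on both arrays where the text says so. It says where another gene was named after its value was seen. 1 gene that the study measured is left out. Promoters are RefSeq's, build GRCm38.p6.

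Results were recomputed with arrays centred on their medians, with quantile or cyclic loess normalization, with probe sets averaged, with filters at 2 background levels, with values below background raised to it, and at folds of 1.5 and 4. The scripts were tested on simulated data. R 4.3.3 with limma 3.58.1 and Python 3.11.15 with numpy 2.4.6 and pandas 2.3.3 were run.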

Additional observations from a re-analysis of the deposited data

Results flagged for a closer look

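In 5 of 7529 genes the difference between Gr1+ and Gr1- cells was at least 2-fold in blood and at least 2-fold the other way in tumor. With values below background raised to it, 1 of the 5 stayed so, Slc40a1. Slc40a1, the iron exporter ferroportin, differed by 1.31 in blood, with 11.59 on blood Gr1+ and 10.28 on blood Gr1-, and by -3.81 in tumor, with 7.09, below background, on tumor Gr1+ and 10.90 on tumor Gr1-, which is at least 3.70-fold lower. Actn1, an actin cross-linker, differed by 1.08 and -2.29, or 0.68 and -0.25 with raised values. Kif23, a kinesin of cell division, differed by 1.29 and -1.73, with a raised tumor value of 0.05, and Hmgn1, a nucleosome-binding protein, by 1.31 and -1.59, with a raised tumor value of -0.84. Mrc1, the mannose receptor of tissue macrophages, differed by -1.17 in blood, with 8.55, below background, on blood Gr1+ and 9.72 on blood Gr1-, or -0.63 with raised values, and by 1.78 in tumor. These 4 genes other than Mrc1 were named after their values were seen. Each difference rests on 1 array per group, and the difference between blood and tumor was not tested.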

How the results depend on the processing

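No paired analysis was possible because each group has 1 array. Without replicates, a list median or gene was counted as moved when it shifted by more than the SD of the olfactory receptor differences, 0.38. The 638 higher genes became 355 with values below background raised to it, 1620 at 1.5-fold and 121 at 4-fold. The 859 lower genes became 223 with values raised, 481 with only genes above background, 2450 at 1.5-fold and 116 at 4-fold. Raising values below background moved the median of the microglia list to -1.69, of the specific granule list to 1.499, of the B cell list to -0.32, of the calprotectin and stefin list to 0.36, of the neutrophil receptor list to 1.17 and of the gelatinase granule list to 0.74, by construction, since it shortens every difference with 1 side below background. The specific granule median was 2.82 with either filter on genes below background. The interferon median stayed within 0.38 of 1.23 under all 7 of its alternatives. Median centring shifted the median of all genes by 0.12. Of all genes at least 2-fold apart, 42.6% were higher as deposited, 55.4% after median centring, 46.6% after quantile and 52.0% after loess normalization, 50.5% among genes above background and 61.4% with values raised. Of 269 named genes, 97 moved and 1 reversed with values raised, 11 moved under loess and 3 with the mean of the probe sets, and 0 under centring or quantile normalization. The reversed gene was Ccna2, a cyclin, at 0.0575 in place of -1.58, where its Gr1+ value was set to a background that is above that of the Gr1- array. At this signal, values under about 9 on the log2 scale carry little information.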

Other observations

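Receptors outside the groups above were mostly less than 2-fold apart, whereas adhesion genes went both ways. Of 8 Fc receptor genes 1 was at least 2-fold higher in Gr1+ cells and 0 lower: Pirb, an inhibitory receptor for MHC class I, read 11.69 on blood Gr1+ and 9.77 on blood Gr1-. Of 12 Toll-like receptor and adaptor genes 2 were higher and 1 lower, with Myd88, the common adaptor, at 12.28 and 11.02 and Tlr3, the receptor for double-stranded RNA, at 8.49 and 10.28. Of 13 adhesion genes 2 were higher and 4 lower as deposited, and 4 were higher and 4 lower after median centring. Jaml, an adhesion molecule of neutrophils and monocytes, read 9.97 on blood Gr1+ and 7.53 on blood Gr1-, and Vcam1 read 8.09 and 10.65. Of 15 genes of immune suppression 2 were higher and 0 lower: Ptgs2, the gene of cyclooxygenase 2, at 10.50 on blood Gr1+ and 7.72 on blood Gr1-, and Cd274, the gene of PD-L1, at 11.18 and 10.02. Of 7 MHC class I genes 0 were at least 2-fold apart.

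Hbb-y, an embryonic globin gene, read 10.76 on blood Gr1+ and 7.46 on blood Gr1-. The adult beta globin genes share sequence with it and were not analysed here. Alas2, which starts heme synthesis in red cell precursors, read 9.94 on blood Gr1+ and 9.47 on blood Gr1-.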
